A study of Arabidopsis thaliana with 12 samples.

Results

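The 3 single-gene probes for nucleus-encoded chloroplast proteins described here are those of SECE1 (AT4G14870), a subunit of the plastid Sec translocase, AT1G68660, an adaptor of the plastid Clp protease, and AT5G19940, a plastid fibrillin. These 3 genes, out of 691 loci with a single-gene probe on the array, were chosen by name on the proline and water values of this same series. Their difference between proline and water is therefore given as a description and not as a test. Each was read by 1 probe, and each had a value above 0 in all 12 samples.

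Total RNA was measured in wild-type Arabidopsis thaliana plants (ecotype Wassilevskija), in 6 samples given 100 mM proline for 48 h and 6 samples labelled as water, without treatment. No mutant allele or transgene is named for either group, and the labels give no tissue, plant age or growth conditions. Nothing in them says that the samples of a group came from separate plants, so the spread between samples may be technical. Sample numbers 1 and 2, 3 and 4, and 5 and 6 are called sets 1, 2 and 3.

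In the chloroplast, the Sec translocase threads unfolded proteins across the thylakoid membrane into the lumen. Its channel is built from a large SecY-type subunit and a small SecE-type subunit, and SECE1 is the small one. The Clp protease of the stroma degrades proteins that a ring-shaped chaperone unfolds and feeds to it, and adaptors such as AT1G68660 bring substrates to that chaperone. Fibrillins are lipid-associated proteins of thylakoids and plastoglobules, the lipid droplets attached to thylakoids, and are known for roles in prenyl lipid metabolism and stress tolerance. All 3 members serve the upkeep of plastid membranes and proteins, and RefSeq lists 1 transcript model for SECE1 and 2 for each of the others, which a single probe cannot tell apart.

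The deposited values are relative intensities, which can be compared between samples for the same probe but not between probes. The median of the values above 0 ran from 0.0325 to 0.0963 over the 12 samples and was lowest in set 3 of both groups, so values were quantile normalized on the log2 scale. Between 153 and 235 of 3439 probes were listed at 0 in the water samples and between 352 and 424 in the proline samples. Partners of a set had no identical value above 0, and their median absolute log2 difference ranged from 0.219 to 0.396. After normalization the median log2 difference of all 3045 tested features was -0.16, and keeping the zeros moved it to -0.02, so each member's difference is also given relative to that median. Of the leaf, root and seed markers listed, only LHB1B2, which encodes an antenna chlorophyll-binding protein, had a single-gene probe, and the tissue could not be read from it. Its deposited values were 7.23 to 12.8 in water and 5.71 to 8.65 in proline.

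SECE1, the small Sec channel subunit, was lower in proline, mostly in set 2. In set 1 the deposited values were 0.0858 and 0.0793 in water and 0.0785 and 0.0837 in proline, so the groups overlapped there. In set 2 they were 0.126 and 0.131 in water and 0.0165 and 0.0492 in proline, and both proline samples were below both water samples. In set 3 they were 0.0405 and 0.0429 in water and 0.0252 and 0.0295 in proline, again with no overlap. Over all sets, 3 of the 6 deposited proline values were below the lowest water value, which was in set 3. The mean of set 1 in proline was 0.983 times that in water, while the same ratio was 0.256 in set 2 and 0.656 in set 3.

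After normalization the mean log2 level of SECE1 was -3.66 ± 0.36 (SD, n = 6) in water and -4.64 ± 0.64 (SD, n = 6) in proline. All 6 proline samples were then below all 6 water samples, the nearest being -4.25 in proline and -4.11 in water. The log2 difference was -0.98 ± 0.30 (SE, 0.42 with set means as samples), a 1.98-fold lower level, and -0.82 relative to the median of all features. It was -0.35 in set 1, -2.01 in set 2 and -0.60 in set 3. Proline sample 3, at -5.92, stood apart from the other proline samples, the nearest of which was at -4.55. Without that sample the log2 difference was -0.73, and without set 2 it was -0.47.

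AT1G68660, the Clp adaptor, was lower in proline in every set. The deposited values were 0.543 and 0.533 in water and 0.357 and 0.357 in proline in set 1. In set 2 they were 0.898 and 0.874 in water and 0.459 and 0.419 in proline. In set 3 they were 0.443 and 0.496 in water and 0.286 and 0.269 in proline. Within each set both proline samples were below both water samples, and over all sets 5 of the 6 proline values were below the lowest water value. The ratio of the set means, proline over water, was 0.664, 0.495 and 0.592 in the order of the sets.

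On the normalized scale AT1G68660 had a mean log2 level of -0.52 ± 0.32 (SD, n = 6) in water and -1.63 ± 0.33 (SD, n = 6) in proline, and the groups did not overlap. The log2 difference was -1.11 ± 0.22 (SE, 0.383 with set means as samples), a 2.16-fold lower level, and -0.95 relative to the median of all features. Within sets 1, 2 and 3 it was -1.13, -1.39 and -0.81. The water level itself differed between sets, from about -0.87 and -0.90 in set 1 to -0.17 and -0.20 in set 2. Set 1 also held the lowest proline values, -2.01 in both samples, so the spread within each group came mainly from the sets. Partners of a set differed by only 0.034 (median of 6 pairs, log2), compared with 0.329 for the middle tested feature, and 0.329% of features had closer partners.

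AT5G19940, the fibrillin, had the largest normalized difference of the 3 members. In set 1 its deposited values were 0.0489 and 0.0736 in water and 0.0251 and 0.0360 in proline. In set 2 they were 0.0733 and 0.0694 in water and 0.00550 and 0.00608 in proline, and in set 3 they were 0.0361 and 0.0303 in water and 0.0109 and 0.00457 in proline. The groups did not overlap within any set. Over all sets 5 of 6 proline values were below the lowest water value, and the exception was proline sample 2. The ratio of the set means was 0.499 in set 1, 0.0812 in set 2 and 0.233 in set 3.

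The mean normalized log2 level of AT5G19940 was -4.25 ± 0.31 (SD, n = 6) in water and -6.40 ± 0.83 (SD, n = 6) in proline. The highest proline sample, at -5.52, was below the lowest water sample, at -4.84. The log2 difference was -2.15 ± 0.35 (SE, 0.482 with set means as samples), a 4.43-fold lower level, and -1.98 relative to the median of all features. It was -1.20, -3.13 and -2.11 in sets 1, 2 and 3. Keeping the zeros and adding 0.01 to each value before the logarithm gave -1.22, and 3 of the 6 proline values were smaller than that offset. Proline samples, in which this probe read lowest, also had more probes listed at 0, and the part of this in the result was not tested.

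**Figure D1:**
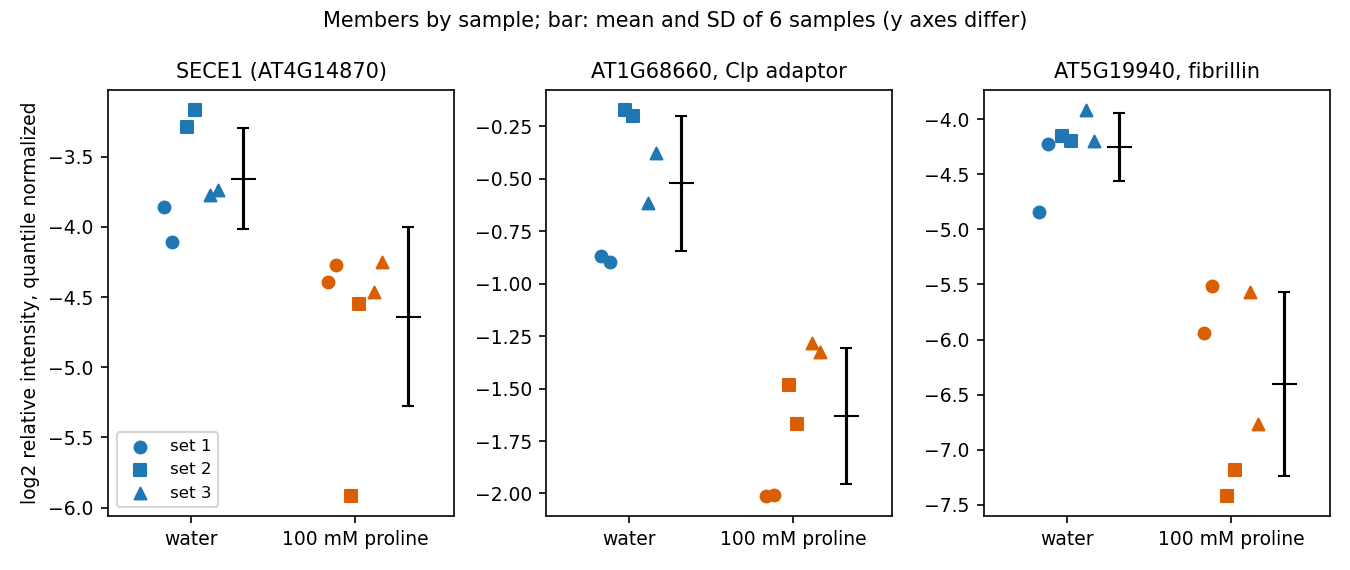
Normalized log2 relative intensity (y axis, a separate range per panel) of the 3 members in each of the 6 water and 6 proline samples, with a marker shape per set and a bar for the mean and SD. All proline points lie below all water points in each panel, and the SECE1 panel shows proline sample 3 alone at -5.92.

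A feature was called when its adjusted p was under 0.05 in limma with Benjamini-Hochberg adjustment over all 3045 features. All 3 members were called as lower, as were 7.65% of all tested features. Every proline value was below every water value for all 3 members after normalization, compared with 5.55% of features. With arrays centred on the median this no longer held for AT1G68660, of which 3 of 6 proline values were below the lowest water value. The difference was below 0 in all 3 sets for all 3, compared with 27.7% of features. Because the members were chosen from this contrast, nothing is read from these counts. With the 2 partners of a set within a group taken as a random block, 2 of the 3 were called as lower, AT1G68660 and AT5G19940, and 1.54% of features. The labels do not pair water and proline samples, but same-numbered samples deviated together from their group means (r = 0.134 to 0.256). With the replicate number as a block the same 2 members were called and SECE1 was not (log2 difference -0.98 ± 0.34, SE). That fit called 263 of 3045 features as lower, and nothing is read from the member counts under either block. In bulk RNA, fewer cells of a type and less RNA per cell cannot be told apart.

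The direction was the same within every set under each way of scaling the arrays. For SECE1 the set 1 difference of -0.35 became -0.32 with median-centred arrays, -0.24 with cyclic loess, -0.20 with zeros kept and -0.02 with no normalization. Its set 1 difference was therefore nearly absent in the values as deposited. For AT1G68660 the difference in any set and scaling ranged from -1.39 to -0.59. For AT5G19940 it ranged from -3.62 in set 2 without normalization to -0.73 in set 1 with zeros kept. In set 2 the difference was largest for SECE1 and AT5G19940 under each of the 5 settings. For AT1G68660 with arrays centred on the median, set 1 was slightly further below 0 than set 2 (-0.88 and -0.85).

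**Figure D2:**
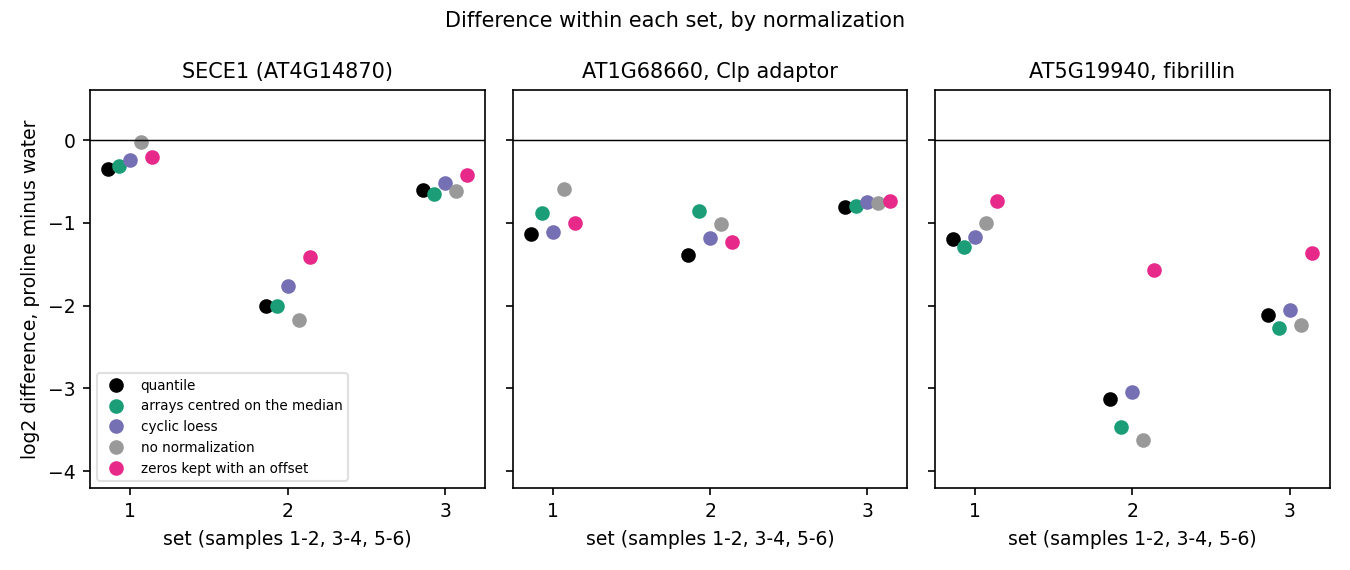
Log2 difference, proline minus water (y axis), of each member within sets 1, 2 and 3 (x axis), with a colour for each of 5 ways of scaling the values. SECE1 lies close to 0 in set 1 and between -2.17 and -1.42 in set 2, AT1G68660 stays between -1.39 and -0.59, and AT5G19940 is furthest below 0 in set 2.

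The ratio of 2 probes within a sample does not depend on a common scale factor of the array, so changes in that ratio were set side by side as well. The log2 ratio of AT5G19940 to SECE1 in the deposited values was -0.55 ± 0.35 (SD, n = 6) in water and -1.89 ± 0.77 (SD, n = 6) in proline. All 6 proline samples, at -1.21 or lower, were below all 6 water samples, at -0.92 or higher. The log2 differences in sets 1, 2 and 3 were -0.97, -1.46 and -1.62. These sizes rest on low AT5G19940 values in proline, 0.00457 to 0.0360. Quantile normalization alone, with zeros missing, gave -0.848, -1.12 and -1.51. Zeros kept with the offset added, also quantile normalized, gave -0.53, -0.16 and -0.94, a comparison chosen after seeing the data. The sign held in each set and the size in set 2 did not.

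For AT5G19940 relative to AT1G68660, 4 of 6 proline samples were below the lowest water sample. The 2 that were not belonged to set 1, and the differences were -0.41, -2.61 and -1.47 in sets 1, 2 and 3. Quantile normalization alone, with zeros missing, gave -0.068, -1.74 and -1.31. With zeros kept, also quantile normalized, the differences were 0.27, -0.34 and -0.63, so in set 1 the sign turned. The ratio of SECE1 to AT1G68660 was -2.99 ± 0.39 (SD, n = 6) in water and -3.14 ± 0.99 (SD, n = 6) in proline. This ratio was higher with proline in set 1 by 0.57, lower in set 2 by a log2 difference of -1.16, and higher in set 3 by 0.14. The signs were the same after quantile normalization. The set 2 value was then -0.615 with zeros missing and -0.19 with zeros kept. SECE1 and the Clp adaptor therefore had no common order between sets. Each of these ratios is a description, with no test, since its members were chosen from the same samples.

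**Figure D3:**
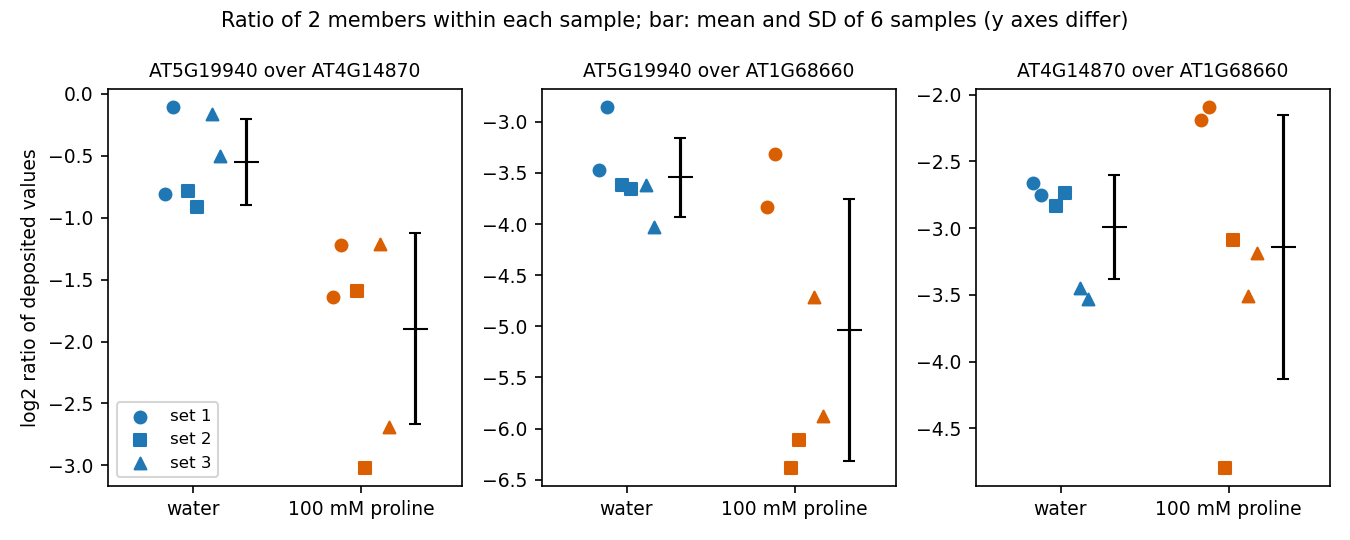
Log2 ratio of the deposited values of 2 members within each sample (y axis, a separate range per panel) in water and proline, with a marker shape per set and a bar for the mean and SD of 6 samples. The level of a ratio depends on the probes and only its shift between groups can be read. The proline points of AT5G19940 over SECE1 (AT4G14870) all lie below the water points, whereas those of SECE1 over AT1G68660 spread from -4.79 to -2.09.

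The members' levels were also compared across the 12 samples. The Pearson correlation of the normalized log2 values was 0.82 between SECE1 and AT5G19940, 0.75 between AT1G68660 and AT5G19940 and 0.69 between SECE1 and AT1G68660. With the group means subtracted, which takes out the difference between proline and water, these were 0.55, -0.11 and 0.17. The 12 samples fall into sets and were normalized together, so the correlations are descriptions.

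Among 445 other loci with a value in all 12 samples, the pattern of AT1G68660 was most closely followed by CUTA, a copper-binding chloroplast protein (r = 0.983, and 0.958 with the group means subtracted), AT1G62250 (0.982 and 0.960) and AT4G27390 (0.970 and 0.925). These loci kept a close likeness to the Clp adaptor within groups, where the sets differ. CUTA had log2 differences of -1.40, -1.80 and -0.76 in sets 1, 2 and 3, in the same order of sets as the adaptor. Nothing is read from that order, since CUTA was picked for its likeness over these same samples. The loci most like SECE1 were AT1G13970 (0.936 and 0.959), AT3G50180 (0.903 and 0.783) and AT2G32040, related to folate transporters (0.893 and 0.761). All 3 had their largest difference in set 2, at -2.92, -5.03 and -2.73 in that order. Nothing is read from this either, since they were picked for following SECE1 over these same samples. In set 1 they had differences of 0.18, -2.62 and -1.19, where SECE1 had -0.35. The loci most like AT5G19940 were AT4G13220 (0.912 and 0.804), AT4G39690 (0.877 and 0.324) and AT1G21500 (0.853 and 0.665). The likeness of AT4G39690 lay mainly in the difference between groups, as its within-group correlation was low.

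Other genes of the same plastid systems were taken from 8 lists of 101 loci in all. They covered Sec translocation, the Tat, SRP and Alb3 routes, the Clp protease, the FtsH, Deg and EGY proteases, the fibrillins, other plastoglobule proteins, envelope import and plastid chaperones. Only 11 of these loci had a single-gene probe and 9 had enough values to be tested. A further 8 probes annotated to several genes included a listed locus and were not used. Besides the 3 members, 0 of 6 tested loci were called in either direction in limma, compared with 13.2% of all tested features. An unadjusted p under 0.05 was found for 2 of the 6 and for 30.8% of all features, and a difference below 0 for 4 of the 6 and for 59% of all features. Their median log2 difference was -0.33, and that of all tested features was -0.16. With 6 loci, these counts are near those of the array as a whole.

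In the Clp system, AT2G03390, which acts with AT1G68660 as a second adaptor, had a log2 difference of -0.95 ± 0.40 (SE, n = 6 and 6, adjusted p = 0.129 with limma). Its deposited values were 0.0177 to 0.118 in water and 0.00535 to 0.0852 in proline, so the groups overlapped. The differences within sets 1, 2 and 3 were -0.66, -1.04 and -1.17. In the Sec system, AT4G38490, the small subunit of the second plastid translocase, which lies in the envelope, was above 0 in 3 water samples and 1 proline sample and was not tested. Cpn60beta3, a subunit of the plastid chaperonin that folds imported proteins, had a log2 difference of -0.37 ± 0.23 (SE, n = 6 and 6, adjusted p = 0.301 with limma). The SE and adjusted p values of the listed loci, here and below, took the 12 samples as independent. Samples of a set were alike (consensus correlation 0.593), so these values may be too small.

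Of the 14 fibrillin loci, 5 had a single-gene probe and 4 were tested. AT5G19940 was the called one. AT2G46910 had a log2 difference of -0.84 ± 0.39 (SE, adjusted p = 0.169 with limma), with set values of 0.23, -1.79 and -0.94. AT2G35490 had a difference of -0.29 ± 0.31 (SE, adjusted p = 0.557 with limma). AT5G09820, which acts in plastoquinone synthesis, had a difference of 0.81 ± 0.42 (SE, adjusted p = 0.211 with limma) in the other direction. That value came from set 2, where it was 2.22, while set 1 gave -0.46 and set 3 gave 0.66. AT5G19940 was chosen from this contrast and is left out of the comparison. Of the other tested fibrillins, AT2G46910 and AT2G35490 were below 0, AT5G09820 was above 0, and none was called. Among all features 59% were below 0 and 13.2% were called in either direction.

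The remaining fibrillin, AT1G51110, was above 0 in all 6 water samples, with deposited values of 0.00445 to 0.0283. It was listed at 0 in 5 of the 6 proline samples, and proline sample 2 had a value of 0.00302, below every water sample. It had too few values in proline to be tested, no fold is given, and the higher number of probes at 0 in proline samples moves with it, the part of which was not tested. AT3G27110, a metallopeptidase of plastoglobules, had the opposite sign, with a log2 difference of 2.89 ± 1.1 (SE, n = 6 and 4, adjusted p = 0.110 with limma). Proline samples 3 and 4 read 0 for it and were left out of the fit, and its lowest water value was 0.000119, so that difference rests on values close to the floor.

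**Figure D4:**
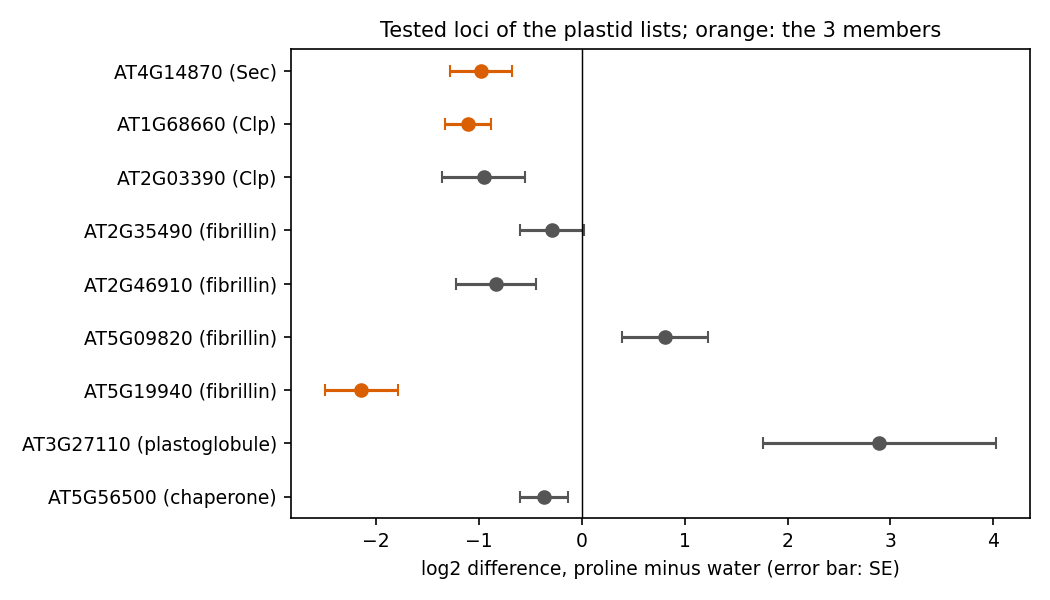
Log2 difference, proline minus water (x axis), with its SE for the 9 tested loci of the plastid lists, the 3 members in orange. The SE takes the 12 samples as independent. AT5G19940 lies at -2.15 and the other fibrillins between -0.84 (AT2G46910) and 0.81 (AT5G09820), while AT3G27110 has the widest error bar.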

How the data were processed

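RNA from 12 samples was measured on an expression array, 6 per group by the sample titles. The authors deposited 1 table of 3439 probes, and the deposited values are intensity on a linear scale, as read from the values (8.43% are 0, none is negative). The sources used here do not name the scanner, dyes, background correction or scaling. Signal over background could not be computed, and the number of arrays limits the precision.

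Probes were named from the platform annotation, which can be old, and updated to RefSeq TAIR10.1 names: 692 had 1 gene, 870 several and 1877 no listed gene. Of the 692 gene identifiers, 2 were not in the gene table. No coordinates are given, because no build is named. Zeros were set missing, the deposited intensity was log2-transformed and quantile normalized, and probes of a locus were averaged. Features with at least 4 values per group were tested with limma 3.58.1 (R 4.3.3, statmod 1.5.0), lmFit and eBayes with no covariate, with Benjamini-Hochberg adjustment. The code was tested on simulated data with noise independent between samples, so that test does not cover likeness within sets. The figures used matplotlib 3.10.9.

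The members, the 8 lists and the naming rule were chosen with earlier results of these data known. The rule named the members, each listed locus on the array and the 3 loci most correlated with each member over 12 samples. The AT locus identifiers were placed in families from general knowledge.

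Same-numbered water and proline samples deviated together from their group means (r = 0.134 to 0.256 over 2337 features, each of the 12 samples best with its own number). That pairing comes from the values and not from the labels. The alternatives were other scalings, filters, blocks by number or set (consensus correlation 0.593), set means, and leaving out samples or sets.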

Additional observations from a re-analysis of the deposited data

Results flagged for a closer look

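Among 21 groups of normalized values of the members, the listed loci and LHB1B2, 2 had a sample set apart from its group by a gap that chance gives in about 1 in 20 groups. Proline sample 3 lay at -5.92 for SECE1, with the nearest proline sample at -4.55. Water sample 1 lay at -4.84 for AT5G19940, with the nearest water sample at -4.22. Without proline sample 3 the log2 difference of SECE1 was -0.73 in place of -0.98, and without water sample 1 that of AT5G19940 was -2.26 in place of -2.15.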

How the results depend on the processing

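The log2 difference of each member was below 0 under all 27 alternatives. It ran from -1.30 to -0.47 for SECE1, -1.26 to -0.79 for AT1G68660 and -2.62 to -1.22 for AT5G19940. The filters, blocks, set means, other variance options of limma and each probe by itself could not move it. Each member has 1 probe and a value in every sample, so these gave the main estimates (-0.98, -1.11 and -2.15). Samples and sets were left out after normalization, where every proline value of each member was below every water value. The sign of those runs was therefore fixed in advance. Only another scaling or keeping the zeros could change the sign, and the members were chosen from this contrast. When 1 sample was left out the log2 difference was -1.075 to -0.729, -1.184 to -1.032 and -2.323 to -1.942, in the same order. The value of AT5G19940 that moved beyond the spread between samples was -1.22, with zeros kept. SECE1 was called in 7 of the 27 alternatives, and its call was lost without any 1 of 10 samples (all but water sample 2 and proline sample 6), without set 2 or set 3, with cyclic loess, median-centred arrays, no normalization, zeros kept, at least 2 values per group, the replicate block, the random block and set means. AT1G68660 was called in 23 and AT5G19940 in 24. Both lost the call with set means, without set 2 and with no normalization, and AT1G68660 also with arrays centred on the median.

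The count of called features was 401, and 436 with the replicate block. It was 783 with the set as a fixed block, 82 as a random block, 20 with no normalization, 29 without set 2 and 204 without set 3. With set means as samples limma called 0, where 472 had an unadjusted p under 0.05. Leaving out 1 sample gave 249 to 477 calls, with 250 without water sample 3 and 249 without water sample 4. Of the calls, 41.9% were higher with proline, against 62.6% with arrays centred on the median, 54.1% with cyclic loess, 54.2% with zeros kept and 85% with no normalization. The cause of these changes was not tested.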
